A study of Mus musculus with 6 samples.

Results

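The genes described here were 10 transcription factor genes of retinal ganglion cells (RGCs), the neurons that carry visual signals from the retina to the brain: the Brn3 genes Pou4f1, Pou4f2 and Pou4f3, the Islet genes Isl1 and Isl2, the early B cell factor genes Ebf1, Ebf2 and Ebf3, and Tbr1 and Atoh7. They were listed by name, with no measured value in the rule but with earlier results of these data known, and all 10 were found by mouse symbol among 43346 Ensembl genes in the tables. Of these 10 genes, 9 were among the 15747 genes with enough counts to be tested, and Atoh7 was not.

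RGC fate in the mouse retina is set by a short cascade of transcription factors. Atoh7 acts in progenitors that can become RGCs, Pou4f2 and Isl1 act downstream of it and jointly switch on genes of RGC differentiation and axon growth, and Pou4f1, Pou4f3, Isl2, the Ebf genes and Tbr1 are expressed in overlapping subsets of RGCs. Sox11, the factor delivered in this study, belongs to the SoxC group of the Sox family, which also acts in RGC development.

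RNA-seq was done on mouse RGCs purified by immunopanning with an antibody to CD90.1, the product of Thy1, and cultured with forskolin, BDNF and CNTF. The 3 groups received an AAV2 for control (EGFP), for wild-type Sox11, or for Sox11K91A, in which the lysine at position 91 that accepts the SUMO modifier is replaced by alanine, and each group had 2 libraries. AAV was added 4 h after plating, and RNA was taken at 72 h. The protocols give embryonic day 18 for the cells sequenced but postnatal day 2 for the purification, and they do not say whether the 2 libraries of a group came from separate cultures, so p-values measure only the spread between these libraries. That spread may be technical in the Sox11K91A pair, while the control pair and the Sox11 pair differed in Xist, as given below. The Sox11 viruses also carry EGFP, transduced and untransduced cells were not separated, and reads from the virus and from the mouse gene were not told apart.

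Total counts were between 27521974 and 37061707 per library. Sox11 was at 234 and 332 CPM (counts scaled by the effective library size) with control AAV, at 9180 and 14600 with Sox11 AAV, and at 12000 and 7030 with Sox11K91A AAV, as the labels say. Control replicate 2 and Sox11 replicate 2 stood apart by low Xist (96 and 254 CPM, against 400 to 526 in the others), a gene expressed from the inactive X of female cells, and this did not follow the replicate number, since Sox11K91A replicate 2 was at 481 CPM. Results that turn on these libraries are given with and without them. Without them 1 control and 1 Sox11 library remain, all spread in that fit comes from the Sox11K91A pair, and its p-values assume that the lone libraries vary as that pair does. The 10 RGC markers were detected in every library, with a sum of 15800 and 15700 CPM with control AAV, 10900 and 8080 with Sox11 AAV, and 9560 and 11600 with Sox11K91A AAV. With control AAV most of the sum came from Nefl (7090 and 6340 CPM) and Nefm (3340 and 3420 CPM). Nefl was at 4100 and 2190 CPM with Sox11 AAV and at 3100 and 4330 with Sox11K91A AAV. Nefm was at 1400 and 748 CPM with Sox11 AAV and at 1090 and 1600 with Sox11K91A AAV. Of the 10 markers, 5 were called lower for Sox11 and 3 for Sox11K91A, none higher. The means of Tubb3, Stmn2 and Elavl4 were above control with both viruses, not past the threshold. Those of the other markers were below control. The markers of bipolar cells summed to 1.63 to 2.54 CPM and those of microglia to 0.362 to 2.11 CPM, and Vsx1, Rcvrn, Gfap, Olig2 and Tyrobp were at 0 in all 6 libraries. The amacrine list of 10 genes summed to 247 and 102 CPM with control AAV, 142 and 68.1 with Sox11 AAV, and 130 and 128 with Sox11K91A AAV. Chat, which defines cholinergic amacrine cells, was at most at 1.0 CPM, and Slc18a3 of the same list was at 0.0905 to 5.46 CPM. Slc5a7 of that list was called higher in both comparisons with control. It went from 10.9 and 5.5 CPM to 24.5 and 29.7 with Sox11 AAV and to 27.3 and 20.7 with Sox11K91A AAV. In each comparison, 1 other gene of the list was called lower. The horizontal cell list of 5 genes summed to between 66.2 and 281 CPM, mostly from Calb1 (13.0 to 234 CPM). Prox1 of that list went the other way and was called higher in both comparisons with control, from 8.27 and 3.17 CPM to 32.6 and 37.8 with Sox11 AAV and 41.0 and 25.4 with Sox11K91A AAV. In bulk cultures, fewer cells of a type and less RNA per cell cannot be told apart.

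The RGC factors ranged widely in level, from Isl1 and Pou4f1 at the top to Ebf2 and Atoh7 near the limit of detection. On the TPM scale, which is per transcript length and so allows genes to be compared, the control means were 281 for Isl1, 219 for Pou4f1, 101 for Ebf3, 66.6 for Pou4f2, 52.6 for Pou4f3, 41.9 for Ebf1, 35.8 for Isl2, 17.8 for Tbr1, 0.58 for Atoh7 and 0.27 for Ebf2. With control AAV, only Atoh7 and Ebf2 overlapped with their neighbour in this order. The order of Isl1, Pou4f1 and Ebf3 at the top was the same in all 3 groups, without overlap between neighbours. In the middle it was not: with Sox11 AAV the TPM of Pou4f2 and Pou4f3 overlapped, as did those of Ebf1 and Isl2, and with Sox11K91A AAV Pou4f3 (65.7 and 78.8 TPM) was above Pou4f2 (52.4 and 58.5 TPM), while Pou4f2 and Ebf1 overlapped.

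**Figure D1:**
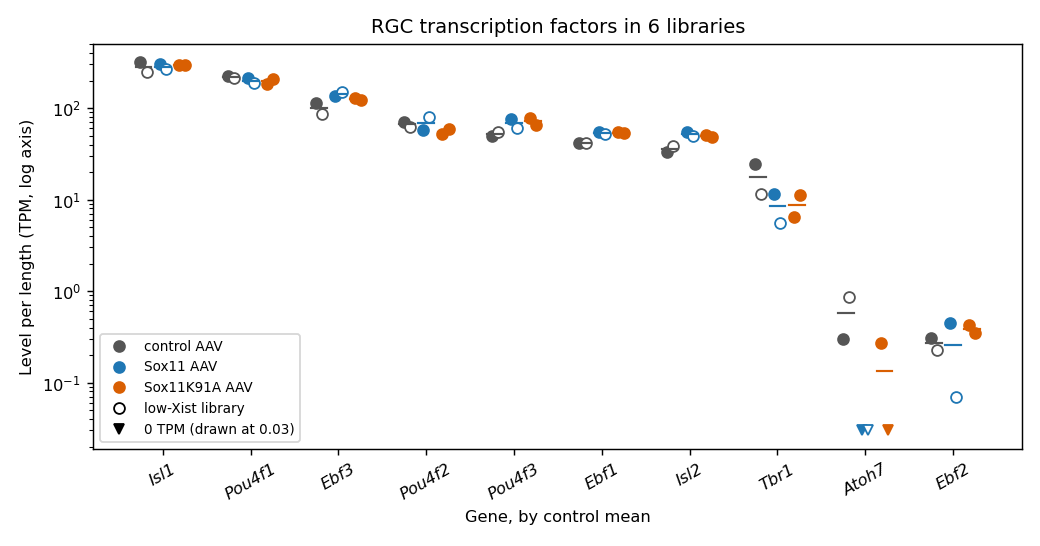
TPM of the 10 RGC transcription factor genes (log axis) in each of the 6 libraries, ordered by control mean, with short lines at group means, open symbols for the low-Xist libraries and triangles for values of 0. Isl1, Pou4f1 and Ebf3 lead in every group, and Ebf2 and Atoh7 stay below 1 TPM.

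None of the 9 tested factors passed the threshold (adjusted p under 0.05 and a fold change above 1.2, limma-voom) in any comparison, while the same threshold was passed by 20.1% of all tested genes for Sox11 against control (9.96% higher and 10.2% lower), by 10.6% for Sox11K91A against control (5.81% higher and 4.81% lower) and by 0.0% for Sox11K91A against Sox11. The edgeR and DESeq2 tests also called 0 of the 9 genes in each comparison. The counts over all genes changed when single libraries were left out, for Sox11 also when the library was of the Sox11K91A group. Such a fit has fewer libraries to estimate the spread, so a fall does not show which library the calls rest on. For Sox11, 3171 genes passed, but 0 did without Sox11 replicate 2, 1745 without control replicate 2, and 1578 and 1545 without Sox11K91A replicate 1 and 2. For Sox11K91A, 1672 passed, but 0 did without control replicate 2, 0 without Sox11K91A replicate 1, 161 without Sox11K91A replicate 2 and 2529 without control replicate 1. At an unadjusted p under 0.05, Sox11 against control held 3 of the 9, Isl2, Ebf3 and Tbr1, against 38.0% of all genes. The other comparisons held 0 of the 9, against 30.6% of all genes for Sox11K91A against control and 0.686% for Sox11K91A against Sox11. The median of the absolute log2 fold change was 0.28 over the 9 factors and 0.47 over all genes for Sox11, and 0.33 and 0.39 for Sox11K91A.

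The confidence intervals bound the size of a difference more tightly for most of these genes than the adjusted p does alone. They cover only the spread between these libraries, which may be technical in part. The share of all genes with intervals this narrow is not given here. In each comparison, the 95% confidence interval of the fold change lay within 2-fold in either direction for 7 of the 9 genes, the exceptions being Tbr1 and Ebf2. In CPM, the Sox11 libraries did not overlap with control for 3 genes that were higher (Isl2, Ebf1 and Ebf3) and 1 that was lower (Tbr1), where 61.5% of all genes did not overlap (30.9% higher and 30.6% lower). The Sox11K91A libraries did not overlap with control for 6 genes that were higher (Pou4f3, Isl1, Isl2, Ebf1, Ebf2 and Ebf3) and 2 that were lower (Pou4f2 and Tbr1), where the share over all genes was 61.9% (31.2% higher and 30.7% lower). The comparisons of Sox11 and of Sox11K91A share their control libraries, so their like directions are not independent.

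**Figure D2:**
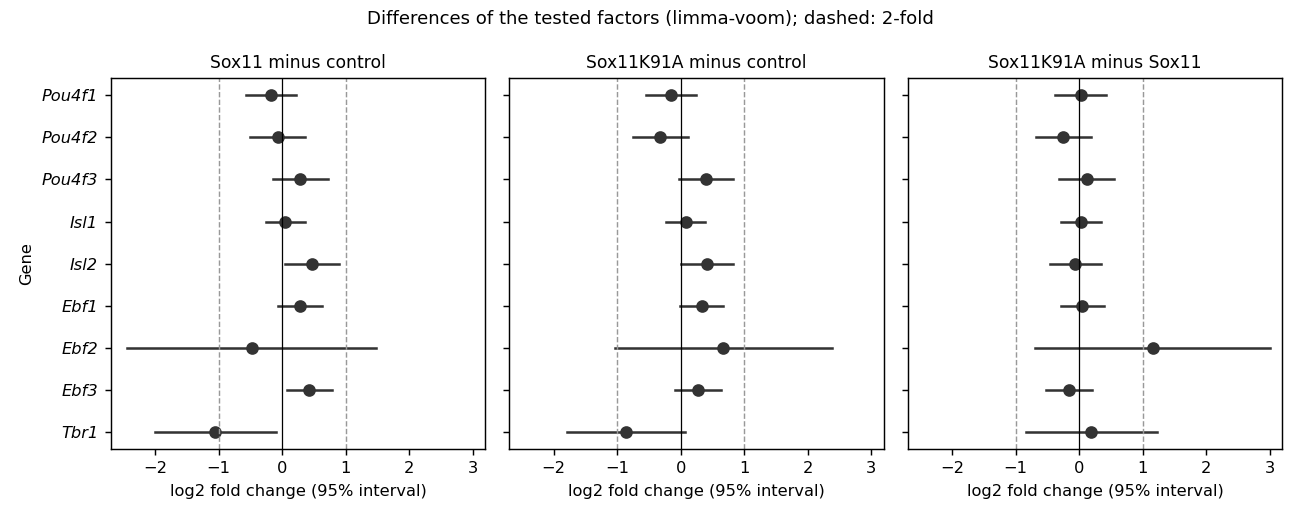
Log2 fold change (x axis) with its 95% confidence interval for the 9 tested genes in the 3 comparisons, from limma-voom, with dashed lines at 2-fold. The intervals of Tbr1 and Ebf2 cross a dashed line, and those of the other 7 genes stay between them.

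Among the Brn3 genes, which encode POU homeodomain factors, Pou4f1 (Brn3a) was the most abundant and is a marker of most RGCs. Pou4f1 was at 428 and 369 CPM with control AAV, 386 and 321 with Sox11 AAV, and 332 and 385 with Sox11K91A AAV. The Sox11 libraries overlapped with control, and the log2 fold change was -0.17 (SE 0.17, 95% interval -0.57 to 0.22, adjusted p = 0.48). For Sox11K91A it was -0.16 (SE 0.17, interval -0.55 to 0.24, adjusted p = 0.58).

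Pou4f2 (Brn3b), which acts early in RGC differentiation and axon growth, was at 107 and 104 CPM with control AAV, 85.9 and 119 with Sox11 AAV, and 79.8 and 89.8 with Sox11K91A AAV. The pair of Sox11 libraries lay on either side of control, and both Sox11K91A libraries were below it. Relative to control, the log2 fold change was -0.07 (SE 0.18, interval -0.50 to 0.36, adjusted p = 0.82) for Sox11 and -0.32 (SE 0.18, interval -0.75 to 0.11, adjusted p = 0.28) for Sox11K91A.

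Pou4f3 (Brn3c), which marks a smaller set of RGCs and is also required in hair cells of the inner ear, was at 54.1 and 65.9 CPM with control AAV, 81.6 and 64.8 with Sox11 AAV, and 86.0 and 72.3 with Sox11K91A AAV. Both Sox11K91A libraries were above control, and Sox11 replicate 2 was not. Its log2 fold change was 0.28 (SE 0.18, adjusted p = 0.30) for Sox11 and 0.40 (SE 0.18, interval -0.03 to 0.83, adjusted p = 0.19) for Sox11K91A. Within the libraries of higher Xist, the log2 ratio was 0.59 for Sox11 and 0.55 for Sox11K91A, and between the low-Xist libraries it was -0.02 for Sox11. Without the low-Xist libraries, with 1 control library, the fit gave 0.54 for Sox11K91A with an adjusted p that rounds to 0.05 and was past the threshold.

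The sum of the 3 Brn3 genes was nearly level across libraries, at 345 and 331 TPM with control AAV, 347 and 327 with Sox11 AAV, and 314 and 333 with Sox11K91A AAV. The share of Pou4f3 in that sum was 14.4% and 16.7% with control AAV, 21.9% and 18.7% with Sox11 AAV, and 25.1% and 19.7% with Sox11K91A AAV. All 4 libraries with a Sox11 virus thus held a larger share of Pou4f3 than either control, and this share was not tested.

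Isl1, a LIM homeodomain factor that pairs with Pou4f2 in RGCs and is also expressed by cholinergic amacrine and ON bipolar cells, varied least of the tested genes in CPM. It was at 260 and 270 CPM with control AAV, 282 and 268 with Sox11 AAV, and 273 and 289 with Sox11K91A AAV. In CPM the lowest and highest of the 6 libraries thus lay close together, with the Sox11 libraries overlapping control and both Sox11K91A libraries just above it. In TPM the controls were at 316 and 245, on either side of the other libraries (269 to 300). The mean transcript length that RSEM assigned to Isl1 was 1836 and 2201 bases in these 2 controls. Compared with control, the log2 fold change was 0.05 (SE 0.13, interval -0.26 to 0.36, adjusted p = 0.80) for Sox11 and 0.08 (SE 0.13, interval -0.23 to 0.39, adjusted p = 0.72) for Sox11K91A.

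Isl2, the second Islet gene, is expressed in a subset of RGCs, where it represses the program of ipsilateral projection. It was at 24.6 and 32.8 CPM with control AAV, 41.6 and 38.1 with Sox11 AAV, and 38.8 and 37.8 with Sox11K91A AAV. All 4 libraries with a Sox11 virus were above both controls. On the log2 scale the fold change was 0.47 (SE 0.18, interval 0.05 to 0.89, adjusted p = 0.098) for Sox11 and 0.42 (SE 0.18, adjusted p = 0.16) for Sox11K91A. Without control replicate 2, which leaves 1 control library, Isl2 for Sox11 was at 0.69 with an adjusted p of 0.049. Without both low-Xist libraries, which leaves 1 Sox11 library against 1 control, it was at 0.76 (adjusted p = 0.043) for Sox11, and at 0.63 (adjusted p = 0.027) for Sox11K91A with 2 libraries against 1. Between the low-Xist libraries alone the log2 ratio for Sox11 was 0.22. The antisense gene Gm17226 overlaps Isl2, with 6 to 46 counts against 688 to 1266 for Isl2, and whether the counting used strand is not stated.

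The Islet sum was 350 and 284 TPM with control AAV, 355 and 318 with Sox11 AAV, and 346 and 341 with Sox11K91A AAV, so that control spanned nearly the whole range. Isl2 made up 9.45% and 13.6% of it with control AAV, 15.6% in both Sox11 libraries, and 14.7% and 14.1% with Sox11K91A AAV.

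The Ebf genes encode helix-loop-helix factors that act redundantly in the differentiation and axon projection of RGCs, and Ebf3 was the most abundant. Ebf3 was at 276 and 227 CPM with control AAV, 325 and 353 with Sox11 AAV, and 309 and 297 with Sox11K91A AAV. All 4 libraries with a Sox11 virus were above both controls. The log2 fold change was 0.43 (SE 0.15, interval 0.07 to 0.79, adjusted p = 0.084) for Sox11 and 0.27 (SE 0.15, interval -0.09 to 0.63, adjusted p = 0.27) for Sox11K91A. Without control replicate 1, which leaves 1 control library, Ebf3 passed the threshold for Sox11 at 0.58 (adjusted p = 0.028), and without both low-Xist libraries it was at 0.24 (adjusted p = 0.23). The log2 ratio for Sox11 was 0.64 between the low-Xist libraries and 0.24 between the others.

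Ebf1 was at 94.6 and 113 CPM with control AAV, 129 and 123 with Sox11 AAV, and at 130 in both Sox11K91A libraries. It was thus also higher in all 4 libraries with a Sox11 virus, by a log2 fold change of 0.28 (SE 0.14, interval -0.06 to 0.62, adjusted p = 0.20) for Sox11 and 0.33 (SE 0.14, interval -0.01 to 0.67, adjusted p = 0.17) for Sox11K91A. Without the low-Xist libraries, with 1 control library and a Sox11K91A pair at nearly equal CPM as the only source of spread, Ebf1 for Sox11K91A was at 0.46 with an adjusted p of 0.033, past the threshold, and for Sox11 at 0.44 with an adjusted p of 0.070. Between the low-Xist libraries the log2 ratio for Sox11 was 0.11.

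Ebf2 was close to the detection limit, with 16 and 25 counts with control AAV, 31 and 6 with Sox11 AAV, and 35 and 26 with Sox11K91A AAV. The 2 Sox11 libraries differed widely from each other, and in CPM (1.13 and 0.181) they lay on either side of all the others. The log2 fold change was -0.48 (SE 0.82, interval -2.44 to 1.47, adjusted p = 0.70) for Sox11, and its sign turned with edgeR, with DESeq2 (0.08 with each) and without Sox11 replicate 2 (0.87). For Sox11K91A it was 0.67 (SE 0.73, interval -1.04 to 2.39, adjusted p = 0.58), an interval that holds 2-fold differences in both directions.

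Summed over the family, Ebf genes were at 157 and 129 TPM with control AAV, 192 and 202 with Sox11 AAV, and 183 and 175 with Sox11K91A AAV. The lowest library with a Sox11 virus was above the higher control, and Ebf3 made up 67.2% to 74.5% of the sum in every library. This sum was not tested.

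**Figure D3:**
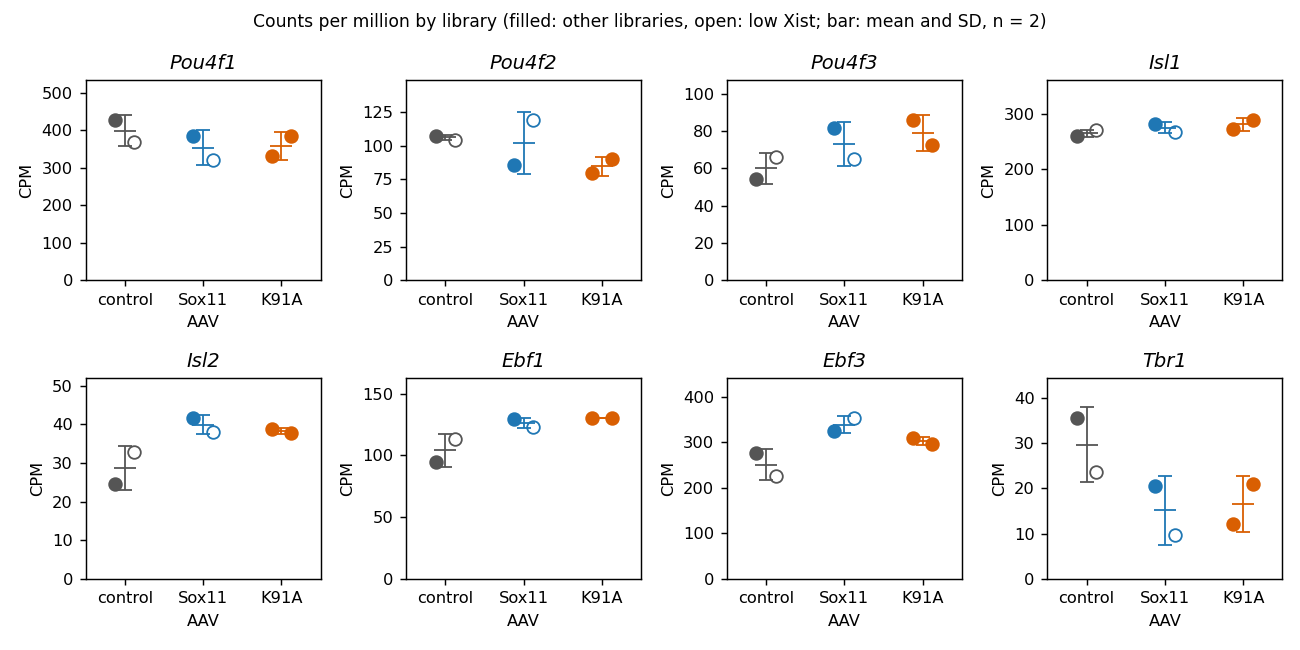
CPM of 8 of the RGC transcription factor genes in each library (y axis from 0), with the mean and SD of each group (n = 2) and open symbols for the 2 low-Xist libraries. Isl2, Ebf1 and Ebf3 are higher and Tbr1 lower in all 4 libraries with a Sox11 virus than in either control, and Isl1 is nearly level.

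Tbr1, a T-box factor that marks a subset of RGCs and is better known from deep-layer neurons of the cortex, had the largest estimated difference from control among the genes with more than 100 counts in every library. It was at 35.5 and 23.7 CPM with control AAV (992 and 915 counts), 20.5 and 9.74 with Sox11 AAV, and 12.1 and 20.9 with Sox11K91A AAV. All 4 libraries with a Sox11 virus were below both controls, and the pairs within each group differed widely. The log2 fold change was -1.05 (SE 0.40, interval -2.0 to -0.10, adjusted p = 0.10) for Sox11 and -0.86 (SE 0.39, interval -1.79 to 0.06, adjusted p = 0.19) for Sox11K91A.

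The call on Tbr1 depended on how the low-Xist libraries were treated. With a term for them in the fit, Tbr1 was past the threshold in both comparisons, at -1.02 (adjusted p = 0.035) for Sox11 and -1.27 (adjusted p = 0.035) for Sox11K91A. Without them, with 1 Sox11 library against 1 control and the Sox11K91A pair against 1 control, it was at -0.79 (adjusted p = 0.17) and -1.18 (adjusted p = 0.041), the spread coming from the Sox11K91A pair alone. The log2 ratio for Sox11 was -1.28 between the low-Xist libraries and -0.79 between the others. In TPM the separation from control was lost, since control replicate 2 (11.4 TPM) fell just under Sox11 replicate 1 (11.5 TPM), and limma-trend on log2(TPM + 1) gave -0.97 (adjusted p = 0.20) and -0.89 (adjusted p = 0.28). The mean transcript length that RSEM assigned to Tbr1 was 3090 bases in control replicate 1 and 3755 to 3968 bases in the other 5 libraries. Several marker lists also summed highest in control replicate 1 and lowest in Sox11 replicate 2, as Tbr1 did. The sums in these libraries were 247 and 68.1 CPM for the amacrine list and 281 and 66.2 CPM for the horizontal cell list. They were 49.7 and 30.0 CPM for the oligodendrocyte lineage list and 15800 and 8080 CPM for the RGC markers. Of the amacrine list, 1 gene was called higher and 1 lower against control. The part of these lists in the result was not tested.

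Atoh7, the factor of the progenitor stage, was counted 1 and 4 times in the control libraries, 0 times in both Sox11 libraries, and 1 and 0 times with Sox11K91A AAV. All but control replicate 2 were below a floor of 3 counts, which is 0.0778 to 0.109 CPM per library and covers counting error only, so no fold was computed. Retinal progenitor markers were low as well, with a sum of 13.5 to 22.2 CPM over 10 genes.

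The promoters of Tbr1, Isl2 and Ebf3 are shown because these were the 3 genes with an unadjusted p under 0.05 for Sox11, and they were chosen after the values were seen. Promoter sequences were matched by symbol for 8 of the 10 genes (RefSeq, GRCm38.p6). Each run below holds the 250 bases before the RefSeq start site, 5′ to 3′ on the strand of the gene, with matches to the motifs searched in capitals. The Tbr1 stretch is chr2:61804203-61804452 (+ strand) and lies in an exon of a longer non-coding Tbr1 transcript in GENCODE M21. The Isl2 stretch is chr9:55540899-55541148 (+ strand) and lies in an intron of a longer Isl2 transcript up to its last base. The Ebf3 stretch is chr7:137314446-137314695 (- strand) and lies before the annotated gene.
Tbr1: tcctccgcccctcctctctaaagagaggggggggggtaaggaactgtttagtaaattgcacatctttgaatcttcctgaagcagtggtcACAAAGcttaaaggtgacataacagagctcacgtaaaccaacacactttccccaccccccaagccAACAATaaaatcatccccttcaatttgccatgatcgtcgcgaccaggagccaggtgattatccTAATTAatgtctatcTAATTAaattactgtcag
Isl2: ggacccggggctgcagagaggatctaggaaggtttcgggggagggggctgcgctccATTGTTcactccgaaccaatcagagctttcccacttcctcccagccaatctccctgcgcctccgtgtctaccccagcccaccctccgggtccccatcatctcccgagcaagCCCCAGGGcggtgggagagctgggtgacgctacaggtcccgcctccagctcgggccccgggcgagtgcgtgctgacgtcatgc
Ebf3: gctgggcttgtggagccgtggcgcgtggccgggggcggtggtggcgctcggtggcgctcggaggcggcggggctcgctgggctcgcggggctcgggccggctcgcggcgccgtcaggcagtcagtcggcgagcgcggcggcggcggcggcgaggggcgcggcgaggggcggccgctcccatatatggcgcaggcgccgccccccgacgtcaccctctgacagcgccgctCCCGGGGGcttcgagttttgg

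The motifs searched, on both strands, were ACAAAG and AACAAT (Sox), CAGCTG (E-box), ATGCAAAT (POU), TAATTA (homeodomain) and CCCNNGGG (EBF). The Tbr1 stretch held 1 ACAAAG from -161 to -156, 1 AACAAT from -96 to -91 and 2 TAATTA from -33 to -28 and from -18 to -13, counted from the start site. The Isl2 stretch held 1 AACAAT on the other strand, from -194 to -189, and 1 CCCNNGGG from -83 to -76. The Ebf3 stretch held 1 CCCNNGGG from -21 to -14. Among 32851 RefSeq promoters of the same length, ACAAAG was found in 16.5%, AACAAT in 9.42%, TAATTA in 4.84% and CCCNNGGG in 11.8%. These shares count promoters with at least 1 match, and the share with 2 TAATTA is not given here. A match describes these letters only. Of the other promoters matched, those of Pou4f1 and Isl1 held 1 CAGCTG each (13.0% of all promoters), and those of Pou4f2, Atoh7 and Ebf1 held none of the 6 motifs.

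Sox11K91A was compared with Sox11 to ask whether the SUMO site of Sox11 changes its effect on these genes. All 9 genes had an adjusted p of 1.0. The lack of calls was not particular to them, since 0.0% of all 15747 tested genes passed the threshold in this comparison. The log2 differences of the 9 genes (Sox11K91A minus Sox11) were between -0.25 for Pou4f2 and 0.19 for Tbr1, apart from 1.16 for the sparse Ebf2. The intervals were -0.38 to 0.42 for Pou4f1, -0.68 to 0.18 for Pou4f2, -0.32 to 0.55 for Pou4f3, -0.28 to 0.34 for Isl1, -0.46 to 0.35 for Isl2, -0.29 to 0.39 for Ebf1 and -0.52 to 0.20 for Ebf3. Differences of 2-fold thus lay outside the intervals of these 7 genes, and those of Tbr1 (-0.84 to 1.22) and Ebf2 (-0.69 to 3.01) were wide. Only Ebf1 (higher) and Ebf3 (lower) did not overlap between the pairs of libraries, where 26.6% of all genes did not overlap (13.3% higher and 13.4% lower).

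Other transcription factors of RGCs were compared from a list of 36 genes, chosen with earlier results of these data known. Of these, 34 were tested, and 7 rose (Sox11 itself among them), 4 fell and 23 did not pass the test for Sox11, where 9.96% of all genes rose and 10.2% fell, with a median log2 fold change of 0.46 against 0.01 over all genes. For Sox11K91A, 6 rose, 3 fell and 25 did not pass, where 5.81% of all genes rose and 4.81% fell, with a median of 0.24 against 0.02 over all genes. The 11 calls for Sox11 were 0 without Sox11 replicate 2 and 7 without control replicate 2, and the 9 for Sox11K91A were 0 without control replicate 2, 0 without Sox11K91A replicate 1 and 2 without Sox11K91A replicate 2. Besides Sox11 itself, which the virus delivers, Onecut2, a factor of early retinal neurons, rose from 22.3 and 28.0 CPM to 60.2 and 113 with Sox11 AAV (log2 fold change 1.71, SE 0.35, adjusted p = 0.022) and to 82.4 and 53.9 with Sox11K91A AAV (1.41, SE 0.35, adjusted p = 0.049). Myt1, a zinc finger factor of differentiating neurons, rose by 1.68 (SE 0.21, adjusted p = 0.011) and 1.51 (SE 0.21, adjusted p = 0.018). Tfap2d, an AP-2 factor, rose by 1.44 (SE 0.30, adjusted p = 0.023) and 1.26 (SE 0.30, adjusted p = 0.045, and 0.053 with edgeR). With sample quality weights, Onecut2 and Tfap2d did not pass in either comparison, and on the TPM scale neither passed for Sox11K91A.

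Among those that fell was Pou3f1, a POU factor like the Brn3 genes, which went from 58.8 and 57.9 CPM with control AAV to 17.1 and 12.6 with Sox11 AAV (log2 fold change -2.0, SE 0.22, adjusted p = 0.011) and to 12.2 and 18.1 with Sox11K91A AAV (-1.98, SE 0.22, adjusted p = 0.012). Irx6, an Iroquois homeodomain factor, fell, at -1.51 (SE 0.21, adjusted p = 0.012) and -1.27 (SE 0.20, adjusted p = 0.020). Sox12, a SoxC gene like Sox11, fell, at -0.86 (SE 0.15, adjusted p = 0.016) and -0.70 (SE 0.15, adjusted p = 0.033). The call of Sox12 for Sox11K91A was lost on the TPM scale. Sox4, the third SoxC gene, was at -0.51 (SE 0.14) for Sox11, past the threshold at an adjusted p of 0.043, and at -0.54 (SE 0.14) for Sox11K91A, not past it at 0.053. Its call for Sox11 was lost with quality weights, with only the 2 groups compared, with the replicate block and on the TPM scale.

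The genes of RGC axons and identity, several of which lie downstream of these factors in development, mostly fell where they changed. This list was chosen with earlier results of these data known. It holds Opn4 and Spp1, which the paper reports as downregulated by Sox11, so its shares beside those of all genes are a description only. Of 30 genes, 2 rose, 12 fell and 16 did not pass the test for Sox11, where 9.96% of all genes rose and 10.2% fell, and the median log2 fold change was -0.55 against 0.01 over all genes. For Sox11K91A, 1 rose, 7 fell and 22 did not pass, where 5.81% of all genes rose and 4.81% fell, and the median was -0.28 against 0.02. The 14 calls for Sox11 were 0 without Sox11 replicate 2, 7 without control replicate 2, and 9 without each Sox11K91A library in turn, and the 8 for Sox11K91A were 0 without control replicate 2, 0 without Sox11K91A replicate 1 and 1 without Sox11K91A replicate 2. Nefh, the heavy neurofilament chain, went from 179 and 109 CPM to 30.0 and 16.2 with Sox11 AAV (log2 fold change -2.69, SE 0.35, adjusted p = 0.012) and to 24.5 and 32.7 with Sox11K91A AAV (-2.31, SE 0.34, adjusted p = 0.019). Opn4, the photopigment melanopsin, fell, at -3.14 (SE 0.59, adjusted p = 0.018) and -3.54 (SE 0.64, adjusted p = 0.025), from 4.08 and 7.84 CPM with control AAV. Kcnk13, a potassium channel, fell, at -4.04 (SE 0.82, adjusted p = 0.022) and -2.83 (SE 0.66, adjusted p = 0.042), from only 4.76 and 2.41 CPM. The call of Kcnk13 for Sox11K91A was lost on the TPM scale.

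Thy1, whose product was used to purify the cells, went from 725 and 689 CPM to 259 and 46.3 with Sox11 AAV (-2.69, SE 0.75, adjusted p = 0.048), and was at 154 and 312 with Sox11K91A AAV (-1.69, SE 0.76, adjusted p = 0.19). The call for Sox11 was lost with edgeR (adjusted p = 0.081), with DESeq2 (adjusted p = 0.052), with quality weights, with only the 2 groups compared and on the TPM scale. Nrn1, which promotes neurite growth, fell, at -2.18 (SE 0.42, adjusted p = 0.019) and -2.07 (SE 0.41, adjusted p = 0.030). The call of Nrn1 for Sox11 was lost with quality weights. Dcx, a microtubule protein of young neurons, rose from 300 and 263 CPM to 1180 and 1690 (log2 fold change 2.33, SE 0.21, adjusted p = 0.0075) and to 1290 and 1040 (2.04, SE 0.21, adjusted p = 0.012). Mstn, a TGF-beta family ligand, rose by 1.03 (SE 0.20, adjusted p = 0.020) for Sox11. For Sox11K91A it was at 0.78 (SE 0.20, adjusted p = 0.051), not past the threshold, with both libraries above control. Rbpms, an RNA-binding protein of RGCs, was at 232 and 242 CPM with control AAV, 225 and 194 with Sox11 AAV, and 200 and 232 with Sox11K91A AAV, and was not past the threshold (adjusted p = 0.42 and 0.59). The RGC marker list given above shares all its genes with this one. The glial list summed to 232 and 294 CPM with control AAV, 473 and 476 with Sox11 AAV, and 499 and 472 with Sox11K91A AAV. Nearly all of it came from Glul and Vim, which neurons can also express, and Gfap was at 0. Glul was called higher for Sox11 (log2 fold change 1.49, SE 0.15, adjusted p = 0.0083) and Sox11K91A (1.51, SE 0.15, adjusted p = 0.0094). Vim was not past the threshold (adjusted p = 0.36 and 0.35), and 1 gene of the list was called lower for Sox11. The part of the glial list in these results was not tested. No difference between the gene lists and the 9 factors was tested.

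**Figure D4:**
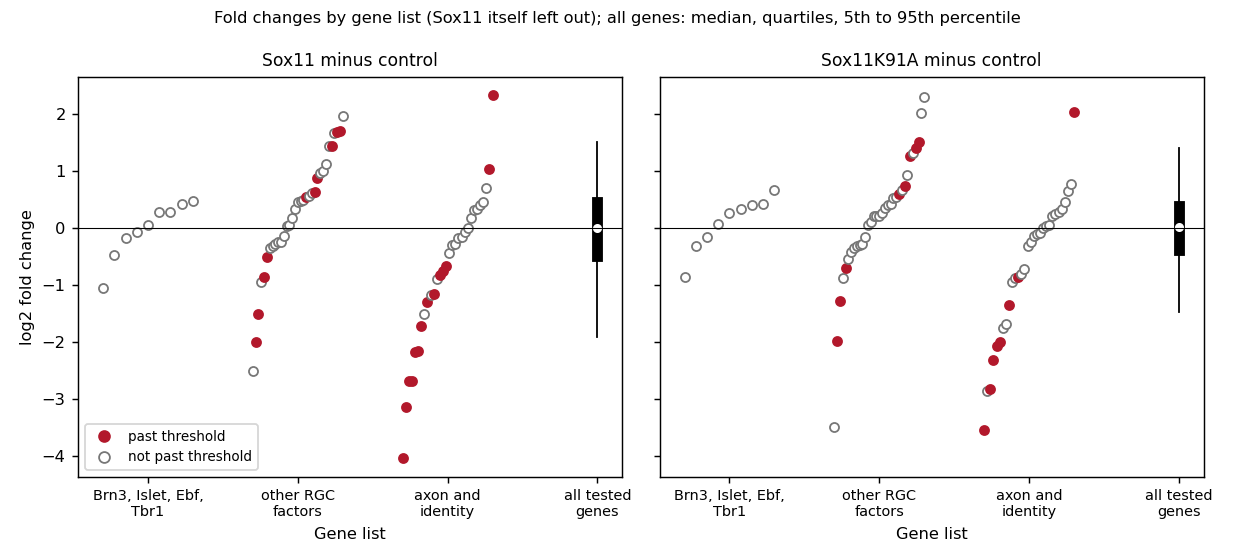
Log2 fold change against control (y axis) of each tested gene in 3 lists, with Sox11 itself left out of the list of other factors, for the Sox11 AAV (left) and the Sox11K91A AAV (right), in red where past the threshold, beside the median, quartiles and 5th to 95th percentiles of all tested genes. No point of the Brn3, Islet, Ebf and Tbr1 list is red, while the lists of other RGC factors and of axon and identity genes hold red points in both directions.

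The genes whose CPM followed the most abundant member of each family most closely over the 6 libraries were found among 9644 other genes with a mean of at least 10 CPM. This is a description only. Over 6 libraries, the highest of 9644 correlations can be large by selection alone, and differences in treatment were not taken out. For Pou4f1 they were Mtmr6 (r = 0.994), Gnpat (r = 0.986) and Schip1 (r = 0.984). Those nearest to Isl1 were Rnd3 (r = 0.996), Ormdl3 (r = 0.959) and Macrod2 (r = 0.954), and to Ebf3 they were Chml, Zfp74 and Carnmt1 (r = 0.997 each). For Mtmr6, for example, CPM was 140 and 119 with control AAV, 125 and 103 with Sox11 AAV, and 110 and 125 with Sox11K91A AAV, the same order of libraries within each group as for Pou4f1.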

How the data were processed

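The labels and methods name STAR for alignment (build mm10) and RSEM for quantification of genes. Versions, annotation and use of strand are not given in the sources used here. The authors deposited, per library, expected counts that were not normalized, TPM values scaled by length and depth, and the mean transcript length of each gene. Expected counts were whole for all 60 values of the 10 genes. Other values were rounded.

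Symbols were matched by Ensembl identifier (42462 of 43346 genes). Coordinates are from GENCODE M21 (GRCm38, the mm10 build). Genes were filtered with filterByExpr, scaled by TMM (factors 0.985 to 1.04) and tested with limma-voom (limma 3.58.1, edgeR 4.0.16, R 4.3.3) with all 6 libraries in 1 fit, without covariates. Calls needed a two-sided Benjamini-Hochberg adjusted p under 0.05 over all 15747 genes and a fold change above 1.2. Where no tool is named, an adjusted p is that of limma-voom. Groups were taken from the labels. The script was tested on simulated data.

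Alternatives were edgeR, DESeq2 1.42.0, sample quality weights, other scalings and filters, only the 2 groups compared, blocks for replicate number and low Xist (under 300.0 CPM before TMM scaling), limma-trend on log2(TPM + 1), and leaving out each library. Leaving out both low-Xist libraries and exchanging replicate numbers were added after seeing the data.

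The members and lists were chosen with earlier results of these data known. Named genes were the 10 members, up to 4 genes per list, comparison and direction with the largest fold change among calls whose groups did not overlap, the 3 genes most correlated with the most abundant member of each family, and genes that checks turn on. Sequence is shown by that rule only for members past the threshold. As there were none, the 3 promoters were chosen after their values were seen. Numbered entries (1 count in all) and spike-in entries (0 counts) were left out. Intervals cover the spread between 2 libraries per group.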

Additional observations from a re-analysis of the deposited data

How the results depend on the processing

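The 9 genes gave 161 fold changes against control under the alternatives for Sox11, of which 151 kept their direction and side of the threshold, 4 passed the threshold and 6 changed sign. For Sox11K91A, 156 of 161 kept both and 5 passed the threshold, and for Sox11K91A against Sox11, 151 of 170 kept both and 19 changed sign, none past the threshold. With a term for low Xist, 1 gene was called in each comparison with control (Tbr1). Without both low-Xist libraries 1 was called for Sox11 (Isl2) and 4 for Sox11K91A (Ebf1, Isl2, Pou4f3 and Tbr1), but that fit holds 1 control and 1 Sox11 library and takes all its spread from the Sox11K91A pair, so its calls are not on a par with those of the full fit. Leaving out 1 library in turn gave 0 to 1 for Sox11. The cause was not tested.

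For Sox11 against control, Pou4f2 changed sign on the TPM scale (0.03) and without Sox11 replicate 1 (0.17, range from -0.30), and Ebf2 with edgeR and DESeq2 (0.08 each), without the low-Xist libraries (0.96) and without Sox11 replicate 2 (0.87, range from -1.68). For Sox11K91A against Sox11, signs changed with the low-Xist term for Pou4f1 (-0.10), Isl2 (0.01) and Tbr1 (-0.25), on the TPM scale for Pou4f1 (-0.03), and without the low-Xist libraries for Pou4f1 (-0.11), Pou4f3 (-0.05), Isl1 (-0.01), Ebf2 (-0.19) and Tbr1 (-0.39). Leaving out 1 library, the ranges crossed 0 for Pou4f1 (-0.11 to 0.15), Pou4f3 (-0.05 to 0.28), Isl1 (-0.02 to 0.07), Isl2 (-0.12 to 0.01), Ebf2 (-0.19 to 2.36) and Tbr1 (-0.38 to 0.69).

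Counts over all genes moved more. For Sox11 they were 3171 as reported, 979 with quality weights, 1637 with only the 2 groups, 1630 without the low-Xist libraries, and 0 (without Sox11 replicate 2) to 3742 leaving out 1 library. For Sox11K91A they were 1672 as reported, 3144 with DESeq2, 2894 with the low-Xist term, 936 on the TPM scale, 3871 without the low-Xist libraries, and 0 (without control replicate 2) to 2529. For Sox11K91A against Sox11, DESeq2 called 2 where limma-voom called 0. Among the other RGC factors, 11 calls for Sox11 became 5 with quality weights, 7 without the low-Xist libraries and 0 to 12 leaving out 1 library, and 9 calls for Sox11K91A became 4 on the TPM scale, 14 without the low-Xist libraries and 0 to 13. Among the axon and identity genes, 14 calls for Sox11 became 6 with quality weights, 9 with only the 2 groups, 8 on the TPM scale, 9 without the low-Xist libraries and 0 to 14, and 8 calls for Sox11K91A became 13 with DESeq2, 17 without the low-Xist libraries and 0 to 11. Without Sox11K91A replicate 1, 0 of all genes were also called for Sox11K91A against control, and 161 without Sox11K91A replicate 2. A fit leaving out 1 library assumes that the lone library varies like the other groups.

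The replicate numbers did not show a pairing: same-numbered libraries had correlated deviations of 0.259 for control and Sox11, -0.045 for control and Sox11K91A, and -0.282 for Sox11 and Sox11K91A. With the replicate block, 0 of the 9 genes were called in each comparison, and over all genes 2679, 1402 and 0 were called. With the numbers of the Sox11K91A libraries exchanged in the block, 0 of the 9 genes and 0 of all genes were called against Sox11. Depth limits Ebf2 (6 to 35 counts), whose intervals reached past 2-fold in both directions in the comparisons with control.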
